A study of Mus musculus with 2 samples.

Results

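The galectin genes Lgals1, Lgals3, Lgals8 and Lgals9 and the gene of the galectin-3-binding glycoprotein, Lgals3bp, were followed across the cell classes of metastatic mouse lung. They were taken by symbol and make up 5 of the 27999 genes in both count matrices. Lungs of female FVB/NJ mice had been dissociated whole and profiled cell by cell in 10x Genomics droplets. The mice were 10 weeks old when 500000 cells of the mouse mammary carcinoma line Met-1 entered the tail vein. The low metastatic burden library was made 1 week after injection and the high metastatic burden library 3 weeks after it. Each library came from 1 mouse, so burden, time and mouse cannot be told apart. Uninjected lungs were not analysed here, and cells injected by vein model outgrowth in the lung rather than spread from a primary tumor.

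Galectins are lectins that bind beta-galactoside sugars on glycoproteins, inside the cell and, after secretion without a signal peptide, on the cell surface and in the matrix. Galectin-1 is a prototype galectin that forms dimers, galectin-3 is the chimera type with a collagen-like tail, and galectin-8 and galectin-9 are tandem-repeat types with a pair of different sugar-binding domains in one chain. In lung, galectin-3 is best known from macrophages and from fibrosis, and galectin-1 and galectin-9 from the control of T cells.

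The low-burden library held 2668 cells and 14041471 unique molecular identifiers (UMIs, each one counted transcript), and the high-burden library 3121 cells and 52723173 UMIs. After the cell filter 2473 and 3033 cells remained, with medians of 4073 and 13998 UMIs, and 11 cell barcodes occurred in both libraries. Cells were put into classes by marker genes, and the classes are called AT2-like, T-like and so on for that reason. Gates placed 83.5% of low-burden and 86.4% of high-burden cells in a class; cells that passed gates of different lineages were left out as possible doublets (286 and 221 cells). Metastatic-like cells made up 1399 of the high-burden cells and 0 of the low-burden cells, and alveolar macrophage-like cells numbered 444 and 3. In each class with at least 20 cells, its own markers outnumbered those of any other class among the 10 genes most raised in it. The cells had been gated on those same markers, so this is no independent check of the classes. PYMT, the viral oncogene sequence appended to the genome, was at 65.0 UMIs per 1000000 UMIs (CPM) in metastatic-like cells and between 54.4 and 86.4 CPM in the other high-burden classes, so it did not mark that class. It had 0 UMIs in every low-burden class.

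All levels below are CPM summed over the cells of a class, with exact 95% intervals that cover counting error only. With 1 mouse per group no test between burdens was possible, and no p-value is given. Droplets also take up free RNA from broken cells. Its share of a class was estimated from the markers of unrelated lineages: the median estimate was 6.03% to 9.62% of UMIs over the low-burden classes with at least 20 cells and 14.1% to 24.3% over the high-burden ones. Multiplied by the level over all cells, it gives the CPM of each galectin that free RNA would bring, and that value is given beside the levels it touches. The estimate takes free RNA to have the composition of all cells of the library together.

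In the GENCODE annotation of mm10, Lgals1 lies on chr15:78926725-78930465 on the plus strand and Lgals3 on chr14:47367751-47386160 on the plus strand. Lgals8 lies on chr13:12439415-12464944 on the minus strand. Lgals9 (chr11:78962974-78984946) and Lgals3bp (chr11:118392751-118402092) share a chromosome and the minus strand. Reads were counted over the genes' exons.

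**Figure D1:**
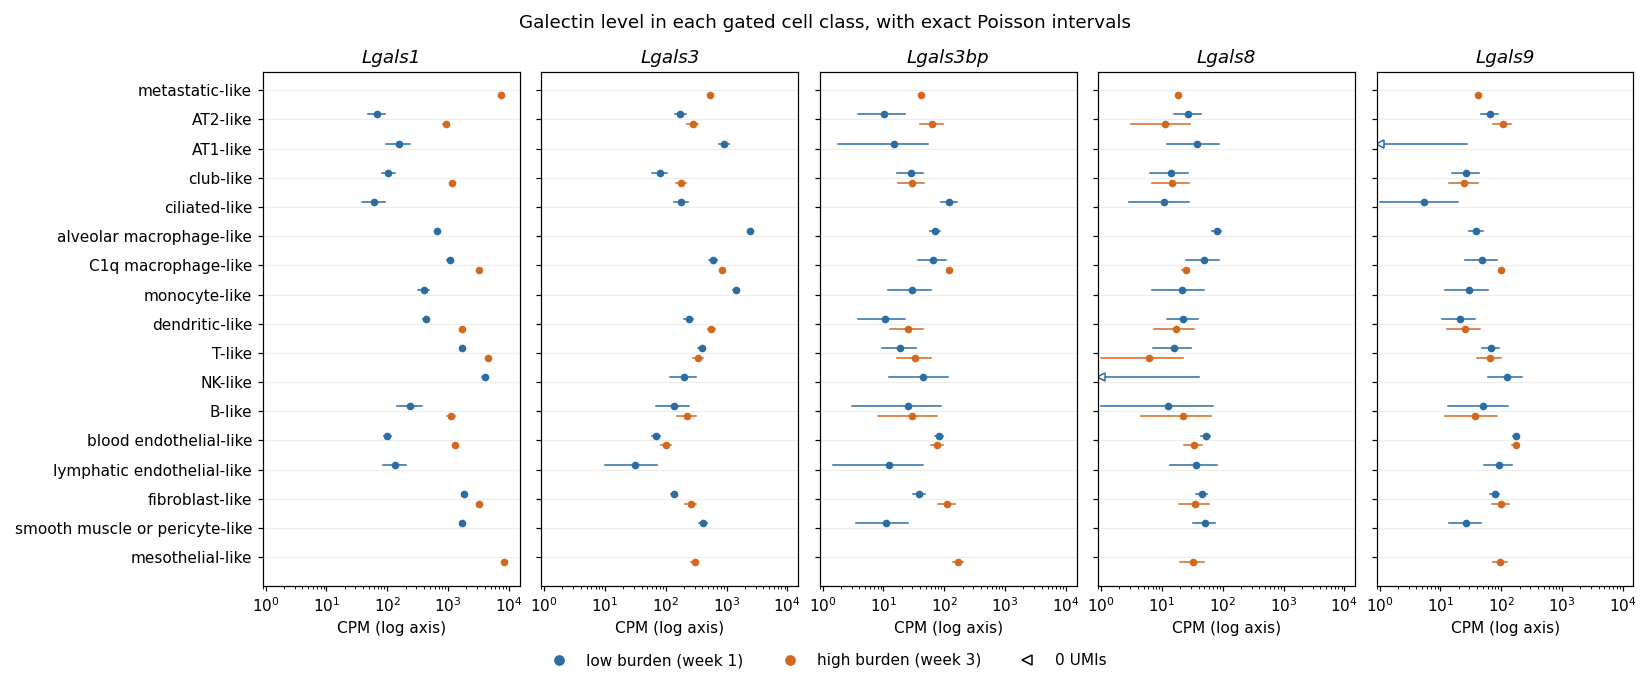
CPM (log axis) of each galectin in each marker-gated class with at least 20 cells, low burden in blue and high burden in orange; bars are exact 95% Poisson intervals and open triangles mark 0 UMIs. Lgals1 sits highest in mesothelial-like and metastatic-like cells at high burden, Lgals3 in alveolar macrophage-like cells and Lgals9 in blood endothelial-like cells.

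Lgals1 encodes galectin-1. At low burden its level was highest in the natural killer (NK)-like class, at 3991 CPM (3587 to 4427) in 27 cells. The 19 mesothelial-like cells, too few for the ranking, held 5398 CPM. Fibroblast-like cells followed at 1817 CPM (1760 to 1875), T-like cells at 1725 CPM (1619 to 1835) and smooth muscle or pericyte-like cells at 1693 CPM (1576 to 1817). These stromal and T-like levels had overlapping intervals. C1q macrophage-like cells held 1072 CPM, alveolar macrophage-like cells 650 CPM, dendritic-like cells 435 CPM and monocyte-like cells 399 CPM. Epithelial and endothelial classes were lowest, from 61.7 CPM in ciliated-like and 68.3 CPM in AT2-like cells to 156 CPM in AT1-like cells. In ciliated-like and AT2-like cells the intervals (39.1 to 92.6 and 48.8 to 93.1 CPM) held the 76.0 and 62.1 CPM that free RNA would bring.

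At high burden the order began with mesothelial-like cells at 8368 CPM (8143 to 8598) and metastatic-like cells at 7344 CPM (7315 to 7373). T-like cells followed at 4553 CPM, fibroblast-like cells at 3290 CPM and C1q macrophage-like cells at 3183 CPM, the last 2 with overlapping intervals. The 18 smooth muscle or pericyte-like cells held 5870 CPM, with 28.4% of their Lgals1 UMIs in 1 cell. Dendritic-like (1706 CPM), blood endothelial-like (1294 CPM), club-like (1159 CPM), B-like (1132 CPM) and AT2-like cells (911 CPM) came last. Every kept high-burden cell of every class had an Lgals1 UMI, against 71.7% of low-burden cells. With each cell thinned to 3000 UMIs, which left out 607 low-burden cells and 0 high-burden cells, the shares were 98.9% and 64.5%. A UMI of Lgals1 in a high-burden cell therefore does not separate the cells that express it.

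Within classes, Lgals1 was uneven in T-like and mesothelial-like cells. The quartiles of its UMIs per 10000 in low-burden T-like cells were 2.10 and 20.4, around a median of 4.35. In mesothelial-like cells at high burden they were 14.3 and 140, around a median of 85.7. Metastatic-like cells were more even, with quartiles of 53.2 and 85.8. The 1 cell with most Lgals1 held 21.4% of the UMIs of the 19 low-burden mesothelial-like cells, and 26.3% of those of the low-burden B-like cells.

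A burden comparison was made in the 8 classes with at least 20 cells in both libraries, for members with at least 50 UMIs over both. Of the 40 member and class pairs, 26 had enough UMIs. In 10 of them the high-burden level was at least 2-fold higher, in 0 at least 2-fold lower, and 16 lay within 2-fold. Lgals1 supplied 7 of the 10. Among all genes with the same minimum, the share at least 2-fold higher ran from 2.9% in fibroblast-like to 14.7% in C1q macrophage-like cells, and each is given with its class below. The share at least 2-fold lower was 3.15% in AT2-like, 3.37% in club-like, 12.6% in C1q macrophage-like, 6.03% in dendritic-like, 7.51% in T-like, 8.52% in B-like, 6.35% in blood endothelial-like and 8.4% in fibroblast-like cells.

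**Figure D2:**
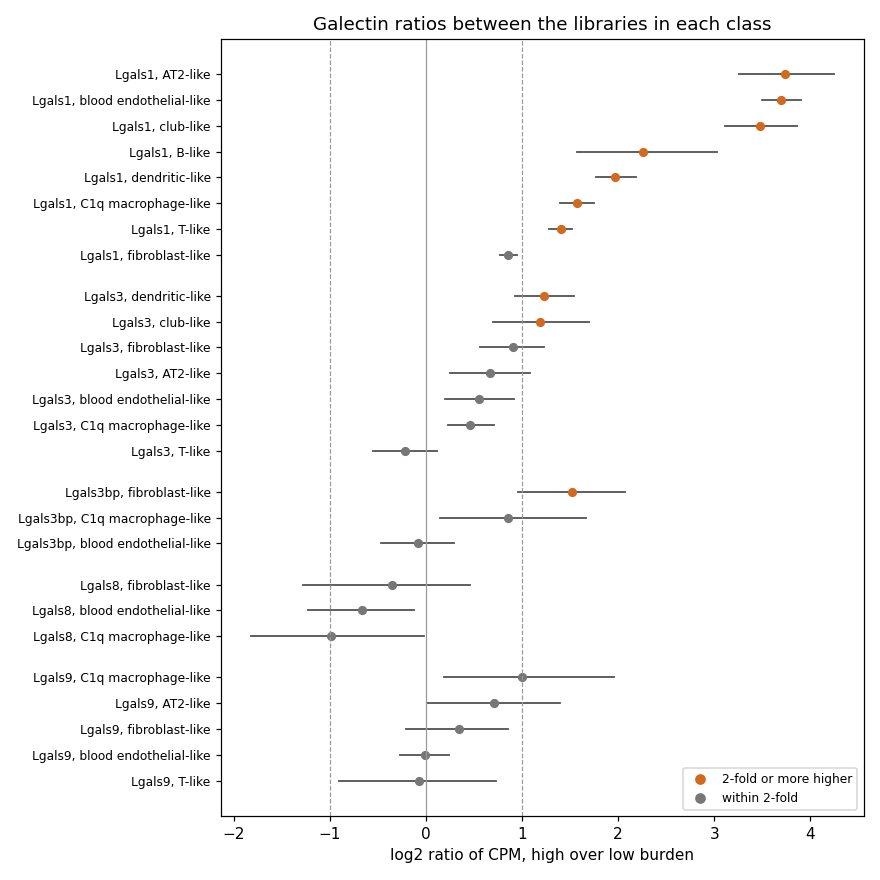
Log2 ratio of CPM, high over low burden, for the 26 galectin and class pairs with at least 50 UMIs; bars are exact conditional 95% intervals for counting error, dashed lines mark 2-fold. Lgals1 lies past 2-fold in 7 of 8 classes and no pair lies past 2-fold in the lower direction.

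In AT2-like cells Lgals1 went from 40 UMIs (68.3 CPM) to 319 UMIs (911 CPM), a log2 ratio of 3.74 (3.26 to 4.25). In blood endothelial-like cells it went from 99.8 to 1294 CPM (log2 ratio 3.70, 3.49 to 3.90) and in club-like cells from 104 to 1159 CPM (3.48, 3.11 to 3.86). Genes at least 2-fold higher made up 3.49%, 4.65% and 5.47% of those measured in these classes. In B-like cells Lgals1 went from 236 to 1132 CPM (log2 ratio 2.26, 1.57 to 3.03), where 3.71% of genes were at least 2-fold higher. The free RNA values differed alongside these levels: 836 CPM in AT2-like, 1178 CPM in blood endothelial-like, 924 CPM in club-like and 1232 CPM in B-like cells at high burden, against 48.3 to 77.2 CPM at low burden. In AT2-like and B-like cells the high-burden intervals (813 to 1016 and 959 to 1327 CPM) held that value. With free RNA subtracted, Lgals1 went from 6.78 to 86.3 CPM in AT2-like cells (log2 ratio 3.67), the low side being near the 5.12 CPM that 3 counts make. It went from 38.3 to 145 CPM in blood endothelial-like cells (1.92) and from 29.9 to 278 CPM in club-like cells (3.22). In B-like cells it went from 200.2 CPM to 0. With the upper quartile of the marker estimates subtracted in place of their median, nothing remained in these 3 classes at either burden, and in B-like cells at high burden.

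In dendritic-like cells Lgals1 went from 435 to 1706 CPM (log2 ratio 1.97, 1.76 to 2.18), where 4.55% of genes were at least 2-fold higher. Free RNA would bring 1437 CPM of the high-burden level, and after its subtraction 402 CPM was left in the low-burden and 355 CPM in the high-burden cells (389 CPM and 0 at the upper quartile). For 25% and 27.6% of dendritic-like cells the marker score lay within 20% of the cut. The estimated free RNA difference was larger than the measured one in these cells. Marker detection in the class also differed: 18.1% of low-burden and 46.6% of high-burden cells had a Ccl22 UMI, and 70.8% and 36.2% an Flt3 UMI. When Leiden clusters of similar cells were named from the same markers, 7 and 12 cells were dendritic-like, too few to compare.

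In T-like cells Lgals1 went from 1725 to 4553 CPM (log2 ratio 1.40, 1.28 to 1.52), where 8.83% of genes were at least 2-fold higher. With free RNA subtracted the levels were 1819 and 4287 CPM (log2 ratio 1.24), and 1.10 was the log2 ratio at the upper quartile. In C1q macrophage-like cells it went from 1072 to 3183 CPM (1.57, 1.39 to 1.75), and from 1099 to 2357 CPM with free RNA subtracted (1.10, and 0.67 at the upper quartile). The background share of 14.7% in that class was the highest of the 8, and its low-burden side rested on 55 cells. In fibroblast-like cells the ratio stayed under 2-fold, from 1817 to 3290 CPM (0.86, 0.77 to 0.95), where 2.9% of all genes passed 2-fold. With free RNA subtracted it went from 1903 to 2652 CPM (0.48), and from 1967 to 1719 CPM (-0.19) at the upper quartile. Of the 7 Lgals1 calls, the one in T-like cells was thus past 2-fold at both settings of the subtraction, which rests on the marker lists. Over 11 processing alternatives its log2 ratio ran from 1.10 to 1.78, and 4 of them lay within the counting interval. The genes most raised in T-like cells included Cd8b1 and Dapl1 at low burden, and Nkg7, Tnfrsf4, Xcl1 and Icos at high burden. Whether the kinds of T-like cell differed between libraries was not tested.

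**Figure D3:**
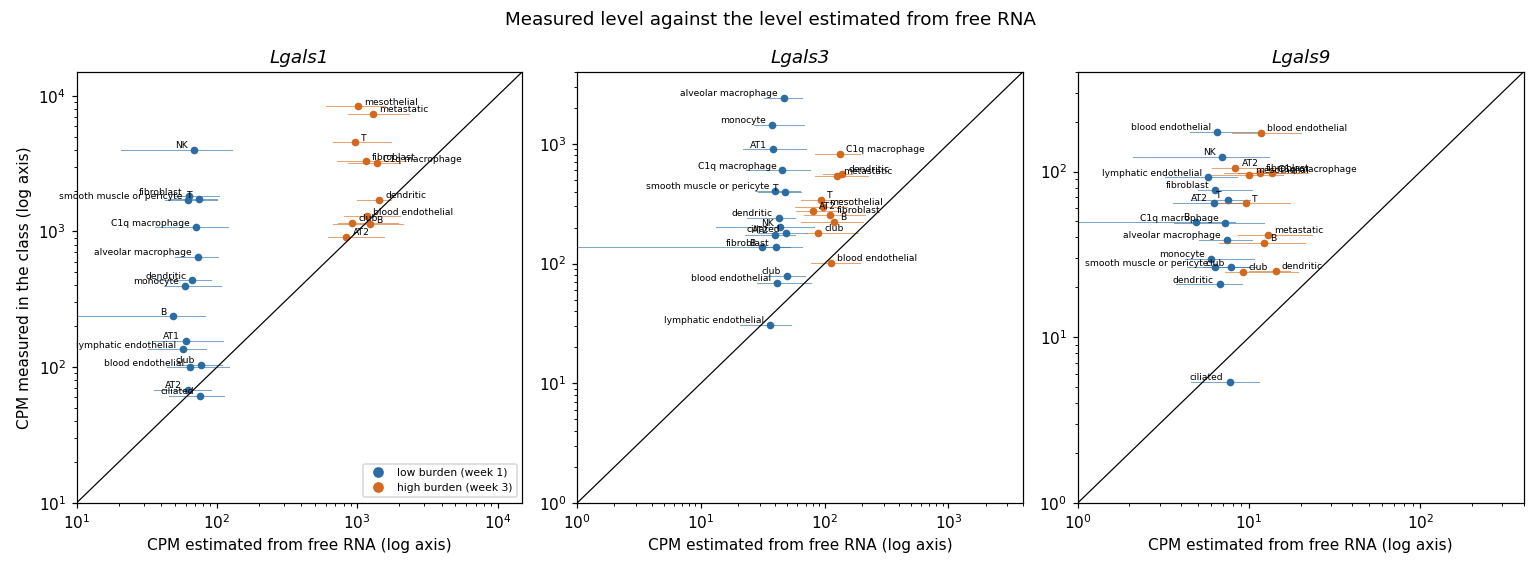
Measured CPM of Lgals1, Lgals3 and Lgals9 in each class with at least 20 cells (vertical, log axis) against the CPM estimated from free RNA (horizontal, log axis; bars span the quartiles over marker genes; classes at 0 UMIs are not drawn). The diagonal marks equal values: AT2-like, club-like, B-like, dendritic-like and blood endothelial-like cells at high burden lie near it for Lgals1, and for Lgals9 the ciliated-like cells lie below it.

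Lgals3 encodes galectin-3, which macrophages secrete and which also gathers on damaged endosomes. At low burden it was highest in alveolar macrophage-like cells, at 2436 CPM (2360 to 2515), where 98.9% of cells had a UMI of it (99.2% after thinning). Monocyte-like cells followed at 1442 CPM (1293 to 1604) and AT1-like cells at 905 CPM (752 to 1081). The intervals of these 3 classes did not overlap. The other epithelial classes held far less Lgals3: 174 CPM in AT2-like, 180 CPM in ciliated-like and 79.3 CPM in club-like cells. C1q macrophage-like cells held 603 CPM, smooth muscle or pericyte-like cells 407 CPM, T-like cells 395 CPM and blood endothelial-like cells 68.9 CPM. Lymphatic endothelial-like cells held 30.7 CPM, no more than the 36.4 CPM that free RNA would bring.

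At high burden, with 3 alveolar macrophage-like and 6 monocyte-like cells left, C1q macrophage-like cells ranked first for Lgals3 at 830 CPM (811 to 849). Dendritic-like cells held 564 CPM and metastatic-like cells 544 CPM, with overlapping intervals. The 10 AT1-like cells held 1081 CPM, close to their low-burden level. Blood endothelial-like cells were lowest at 101 CPM, under the 113 CPM that free RNA would bring. The 34 mesothelial-like cells held 299 CPM, against 582 CPM in the 19 at low burden.

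Lgals3 was compared between burdens in 7 classes and was at least 2-fold higher in 2 of them. In dendritic-like cells it went from 240 to 564 CPM (log2 ratio 1.23, 0.93 to 1.54), with 42.8 and 138 CPM from free RNA; 4.55% of all genes were at least 2-fold higher in this class. In club-like cells it went from 79.3 to 180 CPM (1.18, 0.69 to 1.69), with 49.3 and 88.8 CPM from free RNA, where 5.47% of all genes were. Subtracting the upper quartile of free RNA turned the club-like ratio to -1.21. Both intervals reach below 2-fold. Thinned to 3000 UMIs, the dendritic-like ratio was 0.86. The other Lgals3 ratios ranged from 0.90 (0.56 to 1.23) in fibroblast-like cells to -0.22 (-0.56 to 0.12) in T-like cells. The T-like interval includes no difference.

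Lgals8 encodes galectin-8, a tandem-repeat galectin that binds sugars exposed on damaged vesicles and recruits autophagy receptors. Its counts were low, with 565 UMIs at week 1 and 1063 at week 3. At low burden alveolar macrophage-like cells led with 80.1 CPM (66.7 to 95.4), apart from the next class by their intervals. Blood endothelial-like (52.6 CPM), smooth muscle or pericyte-like (50.6 CPM), C1q macrophage-like (48.9 CPM) and fibroblast-like cells (45.2 CPM) could not be ordered. The 27 NK-like cells held 0 UMIs, with an exact upper bound of 41.2 CPM. At high burden fibroblast-like (35.2 CPM), blood endothelial-like (33.2 CPM) and mesothelial-like cells (32.0 CPM) were first, again with overlapping intervals, and metastatic-like cells held 18.6 CPM (17.2 to 20.1).

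Lgals8 was compared in 3 classes, and all 3 ratios were below 0 but within 2-fold. The log2 ratio was -0.99 (-1.83 to -0.02) in C1q macrophage-like cells, from 48.9 to 24.6 CPM. It was -0.66 (-1.23 to -0.13) in blood endothelial-like cells and -0.36 (-1.28 to 0.46) in fibroblast-like cells. The low-burden C1q macrophage-like value rested on 12 UMIs.

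Lgals9 encodes galectin-9, a tandem-repeat galectin known as a ligand of TIM-3 and as interferon-responsive in endothelium. Blood endothelial-like cells ranked first in both libraries, at 174 CPM (157 to 192) and 172 CPM (149 to 198). Their log2 ratio was -0.01 (-0.27 to 0.24). At low burden 52.9% of these cells had an Lgals9 UMI, and at high burden 73.7%. Thinned to 3000 UMIs the shares were 39.4% (34.0 to 45.1) and 42.1% (32.0 to 52.7), so the gap was smaller at equal depth. Free RNA would bring 6.53 and 11.7 CPM to this class.

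AT1-like cells held 0 Lgals9 UMIs at low burden, in 34 cells (exact upper bound 27.4 CPM), and 1 UMI in 10 cells at high burden. Ciliated-like cells held 5.37 CPM at low burden, below the 7.68 CPM from free RNA. AT2-like cells, also epithelial, went from 64.9 to 106 CPM, a log2 ratio of 0.70 (0.01 to 1.39). The AT2-like cell with most Lgals9 held 24.3% of the class's UMIs at high burden. In C1q macrophage-like cells Lgals9 went from 48.9 to 97.5 CPM, a log2 ratio of 0.99 (0.18 to 1.95), again from 12 low-burden UMIs. Metastatic-like cells held 41.5 CPM (39.3 to 43.7), and dendritic-like cells 20.9 and 25.3 CPM. None of the 5 Lgals9 pairs passed 2-fold in the main setting. The C1q macrophage-like ratio did so in 4 of 11 processing alternatives. It was 1.25 with free RNA subtracted and 1.44 at the upper quartile.

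Galectin-9 is known as an interferon-induced gene product, and the sites through which interferon acts hold a repeated GAAA. For that reason the stretch before the Lgals9 start is shown from the RefSeq promoter table (build GRCm38.p6, chr11:78984947-78985066, minus strand, 5′ to 3′), with the match in capitals.
Lgals9: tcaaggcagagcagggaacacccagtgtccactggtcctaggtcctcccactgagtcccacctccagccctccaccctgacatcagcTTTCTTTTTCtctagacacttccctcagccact
The search was for GAAA, any 2 bases, and GAAA on either strand, in the 250 bases before each start. The Lgals9 match lies on the opposite strand, 33 to 24 bases before the annotated gene start given above and 55 to 46 bases before the RefSeq start from which the window is counted. Of 32851 promoter windows 2.98% held such a match, and of the 4 members with a window (Lgals1 has none in the table) 1 did. The letters do not show that a factor binds.

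Lgals3bp encodes a secreted glycoprotein that binds galectin-3 and galectin-1. At low burden ciliated-like cells ranked first at 121 CPM (88.1 to 162), with blood endothelial-like (81.3 CPM), alveolar macrophage-like (71.9 CPM) and C1q macrophage-like cells (65.2 CPM) next by overlapping intervals. The 15 high-burden ciliated-like cells held 148 CPM. At high burden mesothelial-like cells ranked first at 168 CPM (137 to 203), and C1q macrophage-like (118 CPM) and fibroblast-like cells (111 CPM) followed. Metastatic-like cells held 41.3 CPM (39.2 to 43.6).

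Fibroblast-like cells were the class in which Lgals3bp passed 2-fold, among the 3 compared. It went from 82 UMIs (38.6 CPM) in 451 cells to 44 UMIs (111 CPM) in 54 cells, a log2 ratio of 1.52 (0.96 to 2.07), where 2.9% of all genes were at least 2-fold higher. Free RNA would bring 4.05 and 11.9 CPM. Thinned to 3000 UMIs, 8.80% (6.13 to 12.1) of low-burden and 31.5% (19.5 to 45.6) of high-burden fibroblast-like cells had a UMI of it, and unthinned 15.7% and 51.9%. In C1q macrophage-like cells the ratio was 0.85 (0.15 to 1.67), and in blood endothelial-like cells -0.08 (-0.46 to 0.29). With free RNA subtracted the C1q macrophage-like ratio was 1.02, and 1.12 at the upper quartile. AT2-like cells went from 6 to 22 UMIs, too few for the comparison.

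Over all kept cells, Lgals1 went from 802 to 5917 CPM, a log2 ratio of 2.88 (2.85 to 2.91). Genes at least 2-fold higher made up 11.8% of those measured there and genes at least 2-fold lower 26.8%. Without metastatic-like cells Lgals1 reached 3318 CPM (log2 ratio 2.05), where these shares were 6.72% and 19.4%. Lgals8 was the member past 2-fold in the other direction, from 42.5 to 20.7 CPM (-1.04, -1.19 to -0.89), but -0.80 (-0.98 to -0.62) without metastatic-like cells. Lgals3 stayed near its level, from 513 to 568 CPM (0.15, 0.11 to 0.19). Lgals3bp gave 0.24 with and 0.91 without metastatic-like cells, and Lgals9 -0.46 with and 0.16 without them. The median over all genes measured was -0.28 with and -0.31 without those cells. These organ-wide values mix the number of cells of each class with the level in each.

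**Figure D4:**
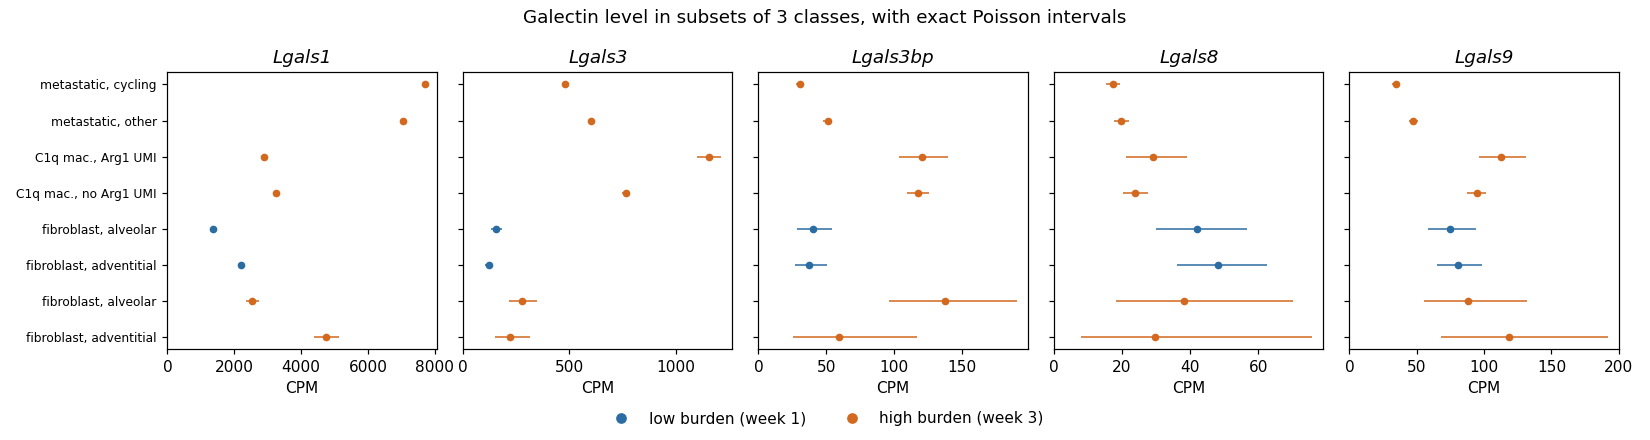
CPM of the 5 genes in subsets of metastatic-like, C1q macrophage-like and fibroblast-like cells, low burden in blue and high burden in orange; bars are exact 95% Poisson intervals. Lgals3 is higher in C1q macrophage-like cells with an Arg1 UMI, and Lgals1 in fibroblast-like cells with adventitial markers higher.

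Subsets of the larger classes were formed after the values were seen. Of the metastatic-like cells, 511 had a cycling marker score of at least 0.8 and 888 a lower one. Lgals1 was 7696 CPM in the cycling and 7038 CPM in the other cells. Lgals3 was 478 and 601 CPM, Lgals3bp 30.3 and 50.9 CPM, and Lgals9 34.6 and 47.4 CPM in the same order. For these 4 genes the intervals did not overlap, while those of Lgals8 did (17.3 and 19.7 CPM). The cycling cells were deeper, with medians of 29663 against 18295 UMIs.

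Among high-burden C1q macrophage-like cells, 127 had a UMI of Arg1, the arginase gene used as a marker of repair-type macrophages. Lgals3 was 1153 CPM (1099 to 1209) in them and 764 CPM (744 to 784) in the other 663. Lgals1 was lower in them, at 2875 against 3245 CPM. Lgals3bp was at 120 and 117 CPM. The cells with Arg1 were slightly deeper, with medians of 11131 against 10386 UMIs.

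Fibroblast-like cells were split by whether alveolar markers (Tcf21, Npnt, Inmt) or adventitial markers (Dpt, Pi16, Clec3b) were higher. Lgals1 was higher on the adventitial side in both libraries, at 2215 against 1352 CPM at low burden and 4746 against 2539 CPM at high burden. That side held 230 of 451 fibroblast-like cells at low burden and 18 of 54 at high burden. The Lgals1 ratio of the whole class thus mixes the level of each side with its share of cells. Lgals3bp was alike at low burden (37.5 and 39.8 CPM). At high burden it was 137 CPM (96.3 to 190) in 36 alveolar-side cells and 59.1 CPM (25.5 to 117) in 18 adventitial-side cells, with overlapping intervals.

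The other galectin genes were sparse. Of 6 listed, 5 were measured, and Lgals12 had 3 UMIs in the first library and 2 in the second. In that order Lgals2 had 42 and 212 UMIs, Lgals4 40 and 41, Lgals7 41 and 190, and Lgalsl, the galectin-like gene, 231 and 891. In 6 of the 8 classes none of them had enough UMIs to compare.

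Of the 15 receptors and binding partners, 9 could be compared in T-like cells, where 2 were higher and 1 lower by 2-fold. Over all genes in T-like cells 8.83% were higher and 7.51% lower, and the median log2 ratio was -0.01 over the partners against 0.15 over all genes. Tnfrsf9, the costimulatory receptor 4-1BB that galectin-9 binds, went from 6 to 90 UMIs (10.4 to 276 CPM), a log2 ratio of 4.73 (3.55 to 6.21). Lamp1, a glycan-rich lysosomal protein, went from 225 to 110 CPM (-1.03, -1.61 to -0.49). P4hb, the protein disulfide isomerase, went from 81.4 to 208 CPM (1.35) in T-like cells and passed 2-fold also in club-like (1.14), dendritic-like (1.33), blood endothelial-like (1.04) and fibroblast-like cells (1.02), where 5.47%, 4.55%, 4.65% and 2.9% of all genes did. P4hb was thus the partner gene past 2-fold in the most classes. Over all cells it went from 156 to 492 CPM. With free RNA subtracted its ratio was 1.05 in T-like cells, but 0.35 there at the upper quartile. In the other 4 classes it fell under 2-fold with the median subtracted, from 0.70 in dendritic-like to 0.91 in club-like cells. The Tnfrsf9 ratio was then 4.86 and the Lamp1 ratio -1.57.

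In dendritic-like cells 9 partners were compared, and Cd40, a costimulatory receptor, went from 15.7 to 96.9 CPM (2.63, 1.58 to 3.85). In C1q macrophage-like cells 13 were compared. Pdpn, the podoplanin gene, had 0 UMIs in the 55 low-burden cells and 519 (59.1 CPM) in the 790 high-burden cells. With the low side set at 3 counts this was 4.83-fold higher, which is not a lower bound. In this class 14.7% of all genes were at least 2-fold higher and 12.6% lower. Mertk, a receptor for the uptake of dying cells, went from 53.0 to 25.4 CPM (-1.06, -1.86 to -0.13) there, and the ratio was -0.84 with free RNA subtracted. Of the 6 receptors compared in AT2-like cells, 0 passed 2-fold in either direction, where 3.49% of all genes were higher and 3.15% lower. No receptor could be compared in B-like cells.

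Of the 4 genes of the damaged-membrane response, Calcoco1, an autophagy receptor gene, was compared and lower in blood endothelial-like cells (24.3 to 10.5 CPM, -1.21, -2.25 to -0.29), where 6.35% of all genes were. In C1q macrophage-like cells it was also past 2-fold (-1.05, -2.67 to 1.28), from 3 low-burden UMIs. Among the 9 glycan-making enzymes, Mgat1 was lower (-1.10, -2.00 to -0.26) and Mgat2 higher (1.06, 0.31 to 1.83) in dendritic-like cells, against 6.03% lower and 4.55% higher of all genes. St6gal1 (-1.13, -2.31 to 0.35) and Gcnt1 (1.31, -1.20 to 6.63) passed 2-fold in C1q macrophage-like cells from 6 and 1 low-burden UMIs. None passed 2-fold among the 5 compared in blood endothelial-like and the 5 in fibroblast-like cells.

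The levels of the 5 members were weakly related over the 25 class and library points pooled. Pearson r ran from -0.36 (Lgals3 with Lgals9) to 0.37 (Lgals3bp with Lgals9). Within the 10 high-burden points alone, Lgals3bp gave 0.78 with Lgals9 and 0.66 with Lgals8. Within the 15 low-burden points these values were 0.095 and 0.014. Among 9151 genes, those most like Lgals1 included Prc1 (0.82), Mybbp1a (0.81), S100a4 (0.81) and Polr2h (0.81). Those most like Lgals3 were Gpx1 (0.79), Myo9b (0.78), Msrb1 (0.78), Stxbp2 (0.76) and Pilra (0.73). For Lgals3bp they were Psmd10 (0.74), Rtp4 (0.72), Plk3 (0.67), Tmed10 (0.66) and Ccl2 (0.65). For Lgals8 they were Dusp3 (0.84), Rab1a (0.82), Clasp2 (0.81), Dst (0.80) and Reep3 (0.80), and for Lgals9 they were Gbp7 (0.78), Coa7 (0.72), Gbp4 (0.72), Elk3 (0.72) and Cdc26 (0.70). Gbp7 and Gbp4 are guanylate-binding protein genes, S100a4 a calcium-binding protein gene and Gpx1 a glutathione peroxidase gene. Within the low-burden and the high-burden points alone, the value was 0.70 and 0.79 for Prc1 and 0.79 and 0.80 for Gpx1. For other listed genes it differed more between libraries, as for Ccl2 (0.33 and 0.87) and Myo9b (0.87 and 0.50). The points share 2 libraries and their depth, so these values are descriptions.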

How the data were processed

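Deposited values were raw UMI counts per gene and cell, which the authors made with Cell Ranger 2.0.2 on mm10 with the PYMT sequence appended; the annotation release is not given in the sources used here. Seurat is also listed in the submitters' processing notes. Cells with 1000 to 7000 genes and at most 10% mitochondrial UMIs were kept, and the kept total lies within a few cells of the one in the study's methods. Classes were gated on the mean log of UMIs per 10000 plus 1 over marker genes (cuts from 0.35 to 1.5, set after the data were seen, and at least 3 markers detected per cell); 6 markers are not in the gene list. No doublet caller was run. UMIs were summed per class and library. The 95% intervals are exact: Poisson for a level, binomial given the summed UMIs for a ratio, and Clopper-Pearson for a share of cells. A pair was compared with at least 50 UMIs summed over both libraries and at least 20 cells in each, and counted at 2-fold. A count of 0 was set to 3. Free RNA shares used markers with at least 1000 UMIs. Likeness used log2(CPM + 10) over genes with at least 500 UMIs. Named were the 5 members in each class, partner genes past 2-fold and the 5 genes most like each member, of which 1 is not reported here. The members and lists were chosen with earlier results of these data known. The 2-fold calls were tested on simulated data. Python 3.11.15, numpy 2.4.6, scipy 1.17.1, scikit-learn 1.9.0, leidenalg 0.10.2 and matplotlib 3.10.9 were used.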

Additional observations from a re-analysis of the deposited data

How the results depend on the processing

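No paired analysis was possible because each group is 1 mouse. The class with the highest level of a member in a library was kept in 8 to 10 of 10 cases over the 10 alternatives. Of these, the median-of-ratios size factor cannot change the order of classes within a library. The cases that changed were Lgals1 at low burden (NK-like to mesothelial-like or smooth muscle or pericyte-like cells) and Lgals8 at high burden (fibroblast-like to mesothelial-like or blood endothelial-like cells). Smooth muscle or pericyte-like cells came first for Lgals1 after thinning because 12 NK-like cells were left, under the minimum of 20. NK-like cells still held 3583 CPM there, against 1818 CPM. The count of pairs at least 2-fold higher, 10, ranged from 5 with the upper quartile of free RNA subtracted (22 pairs left, a setting chosen after seeing the data) and 7 with a gate that needs 1 more marker to 12 without the cell with most UMIs and with no UMI minimum. Pairs at least 2-fold lower, 0, became 1 with Leiden clusters (Lgals3 in mesothelial-like cells), 1 with median-of-ratios size factors (Lgals8 in C1q macrophage-like cells), 2 with free RNA subtracted (3 at its upper quartile) and 2 with no UMI minimum. Subtracting free RNA reversed Lgals1 in dendritic-like cells (-0.18, and -5.94 at the upper quartile) and B-like cells (-3.16 and -2.94). At the upper quartile it also reversed Lgals3 in club-like cells (-1.21). Lgals3 in blood endothelial-like cells went to -3.52 with the median subtracted. All but the -0.18 set a high-burden level of 0 at 3 counts. Over the 26 pairs, 232 of 273 alternative log2 ratios lay within the main counting interval, 36 outside it with no called sign changed, and 5 reversed. Partner pairs at least 2-fold lower went from 6 to 1 after thinning, which leaves 53 of 88 pairs; with free RNA subtracted they were 5, and those at least 2-fold higher went from 10 to 8. These partner alternatives were chosen after seeing the data. Over all cells the log2 ratio of Lgals1, 2.88, was 2.05 without metastatic-like cells, 2.46 thinned, 3.16 with median-of-ratios factors and 2.54 as a mean of per-cell shares. In that order Lgals3 gave 0.26, 0.014, 0.43 and -0.15 (0.19 with all deposited cells), Lgals3bp 0.91, 0.52, 0.52 and 0.48, and Lgals9 0.16, -0.15, -0.18 and -0.19. Lgals8 gave -0.80 without metastatic-like cells and -0.76 with median-of-ratios factors. The cause of these shifts was not tested.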
